A study of Mus musculus with 62 samples.

Results

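Cytosolic ribosomal protein genes were followed in bulk RNA-seq of CD11b+ cells taken from mouse brain. A gene was a member if its symbol was Rplp0, Rplp1, Rplp2 or Rpsa, or was Rpl or Rps followed by digits and at most 1 further letter or l1. Pseudogenes marked -ps and the Rps6k kinases were dropped. The rule found 86 members among 53801 rows of the count matrix. Rps3a1 and Rpl36al also encode ribosomal proteins or close copies, but their symbols fell outside the rule.

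The series held 62 libraries in 16 groups of 3 to 5. APPPS1_NLRP3 mice carry the APPPS1 transgenes, which give amyloid plaques, and lack Nlrp3, the sensor of the NLRP3 inflammasome. APPPS1 mice carry the transgenes with Nlrp3 intact, NLRP3 mice lack Nlrp3 without the transgenes, and WT mice are wild type. Each genotype was sampled at 4, 6 and 12 months (4m, 6m and 12m), and a further set at 12 months has Mxo4 in its titles. What Mxo4 means is not given in the sources used here. The promoters that drive the transgenes, the sex of the mice and the pooling of animals are not given in the sources used here, nor is it said that libraries came from separate animals. The p-values therefore measure only the spread between these samples. Each library is named by its group and the last number of its title.

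Each ribosome joins a small subunit, which reads the mRNA, to a large subunit, which links the amino acids. A flexible stalk of the large subunit, built on Rplp0 with the acidic proteins Rplp1 and Rplp2, recruits the elongation factors. Cells make the ribosomal proteins in matched amounts, and their mRNAs typically begin with a cytosine followed by a run of pyrimidines, the 5′ terminal oligopyrimidine (TOP) motif through which mTOR signalling controls their translation. CD11b marks microglia, the resident macrophages of the brain, which change into a disease-associated state around amyloid plaques.

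The start of transcription is shown for a stalk gene, 2 small subunit genes, a member of the large subunit with a large difference and 2 paralogs, because the TOP motif sits there. Rps6 was added after its values were seen. Each line gives 40 bases before the RefSeq start and 20 bases from it on (GRCm38.p6, 5′ to 3′ on the gene's strand). Capitals mark the first stretch of a C followed by at least 5 pyrimidines between 10 bases before and 20 bases after the start.
Rplp2 (chr7:141447611-141447670, + strand): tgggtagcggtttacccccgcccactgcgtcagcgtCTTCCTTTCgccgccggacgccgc
Rps6 (chr4:86857348-86857407, − strand): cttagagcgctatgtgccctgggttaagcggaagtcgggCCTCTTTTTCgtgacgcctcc
Rps27 (chr3:90213629-90213688, − strand): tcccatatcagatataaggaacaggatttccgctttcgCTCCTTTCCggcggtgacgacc
Rpl39 (chrX:37085203-37085262, − strand): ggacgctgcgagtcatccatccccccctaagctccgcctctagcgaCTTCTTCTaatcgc
Rpl22l1 (chr3:28805468-28805527, + strand): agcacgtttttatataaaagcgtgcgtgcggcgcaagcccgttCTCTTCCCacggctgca
Rps27l (chr9:66946046-66946105, + strand): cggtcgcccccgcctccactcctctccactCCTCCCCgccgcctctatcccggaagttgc
Of the 86 members, 63 had a promoter entry in the RefSeq table. A C followed by at least 5 pyrimidines lay in that window in 37 of the 63 (58.7%), against 24.9% of all 27025 genes with an entry. The letters CTTTCC, searched on the gene's strand alone, lay there in 10 of the 63 (15.9%), against 1.52% of all genes. The letters can overlap the longer run of pyrimidines, and a match is a description of the sequence.

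The members comprised 53 genes of the large subunit, stalk included, and 33 of the small subunit, spread over 19 chromosomes (GRCm38). Chromosome 7 held 15 and the X chromosome 4. The annotation gave 82 as protein coding and 4 (Rpl32l, Rps12l1, Rpl6l and Rps4l) as pseudogenes. A filter on low counts left 82 members among 19865 tested genes. The other 4 were Rpl10l with 0 counts, Rpl32l with 6, Rpl3l with 55 and Rps12l1 with 129 counts over all libraries. Per kilobase of transcript, the highest median levels over the libraries, in CPM (counts scaled to the library's total), were 262 CPM per kb for Rpl10, one of the last proteins to join the large subunit, and 262 CPM per kb for Rps27 of the small subunit. Rpl13a, a large subunit protein often used for normalisation, had 7.50 CPM per kb. Length was that of 1 annotated transcript per gene, whereas counts cover the whole gene. That transcript has 799 bases for Rpl10, of 2053 annotated exon bases, and 345 of 1043 for Rps27, so the order depends on this choice. Ribosomal protein genes have many processed copies in the genome. Of the 86 members, 82 shared at least 1 stretch of 75 bases with a transcript of another gene, 43 shared over 50% of their stretches, and the median was 49.1%. How reads that match several places were counted is not given in the sources used here, so levels of members with shared stretches are uncertain.

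The libraries carried the markers of their label. Over the libraries, the median level was 2225 CPM for Tmem119 and 5535 CPM for P2ry12, both microglial, and 3812 CPM for Cx3cr1, the fractalkine receptor of microglia and monocytes. Nlrp3 had 0 to 2.16 CPM in the NLRP3 and APPPS1_NLRP3 groups and 60.1 to 234 CPM in the others. Total counts had a median of 18392142 and a maximum of 27604393. APPPS1_6m replicate 21 held 659 counts, so it is left out of every level given here but stays in the fit. The next lowest totals were 1394435 in NLRP3_12m replicate 45 and 6187249 in APPPS1_12m replicate 41, and all others had at least 11484943. APPPS1_12m_Mxo4 replicate 56 went against its group: Cst7, a marker of disease-associated microglia, had 10.3 CPM there and 1448 to 2170 CPM in the other 3 libraries. Xist, the RNA of the silenced X chromosome in females, had at most 0.376 CPM in every library of APPPS1_NLRP3_12m and NLRP3_12m. It had 397 to 509 CPM in APPPS1_12m and 352 to 874 CPM in WT_12m. The labels do not give sex, and loss of Nlrp3 and the Xist level cannot be told apart at 12 months in the untagged set.

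Ribosomal protein mRNAs took a larger share of all counts in the transgenic groups from 6 months on. At 4 months, the members held 0.554 ± 0.063% of counts in APPPS1_NLRP3 (SD, n = 4), 0.566 ± 0.049% in APPPS1 (n = 3), 0.586 ± 0.046% in NLRP3 (n = 4) and 0.527 ± 0.037% in WT (n = 4). At 6 months, the share was 0.895 ± 0.199% in APPPS1_NLRP3 (n = 5), 0.807 ± 0.003% in APPPS1 (n = 3), 0.548 ± 0.024% in NLRP3 (n = 4) and 0.604 ± 0.028% in WT (n = 5). The transgenic libraries all lay above the others at that age. At 12 months, the share was 1.001 ± 0.110% in APPPS1_NLRP3 (n = 4), 1.21 ± 0.38% in APPPS1 (n = 5), 0.766 ± 0.132% in NLRP3 (n = 4) and 0.540 ± 0.095% in WT (n = 3). In the Mxo4 set, it was 0.956 ± 0.069% in APPPS1_NLRP3 (n = 3), 0.943 ± 0.193% in APPPS1 (n = 4), 0.661 ± 0.020% in NLRP3 (n = 3) and 0.643 ± 0.059% in WT (n = 3). In the untagged set at 12 months, 2 of 4 APPPS1_NLRP3 libraries lay above every NLRP3 library. The highest NLRP3 library there, replicate 45 with 1394435 counts, had 0.950%. APPPS1_12m had the widest spread. In APPPS1_12m, replicates 35 and 41 had 1.58% and 1.63%, and replicates 36, 37 and 38 had 0.929%, 0.777% and 1.12%. Replicates 35 and 41 are also the group's libraries whose title has 2 as its second number. The labels state 2 library batches, and whether that number gives the batch is not stated. With second number 1, where WT has replicate 40 alone, the APPPS1 share was 1.87 times the WT share at 12 months, and with second number 2 it was 2.87 times, against 2.23 times over all libraries. In bulk RNA, fewer cells of a type and less RNA per cell cannot be told apart.

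**Figure D1:**
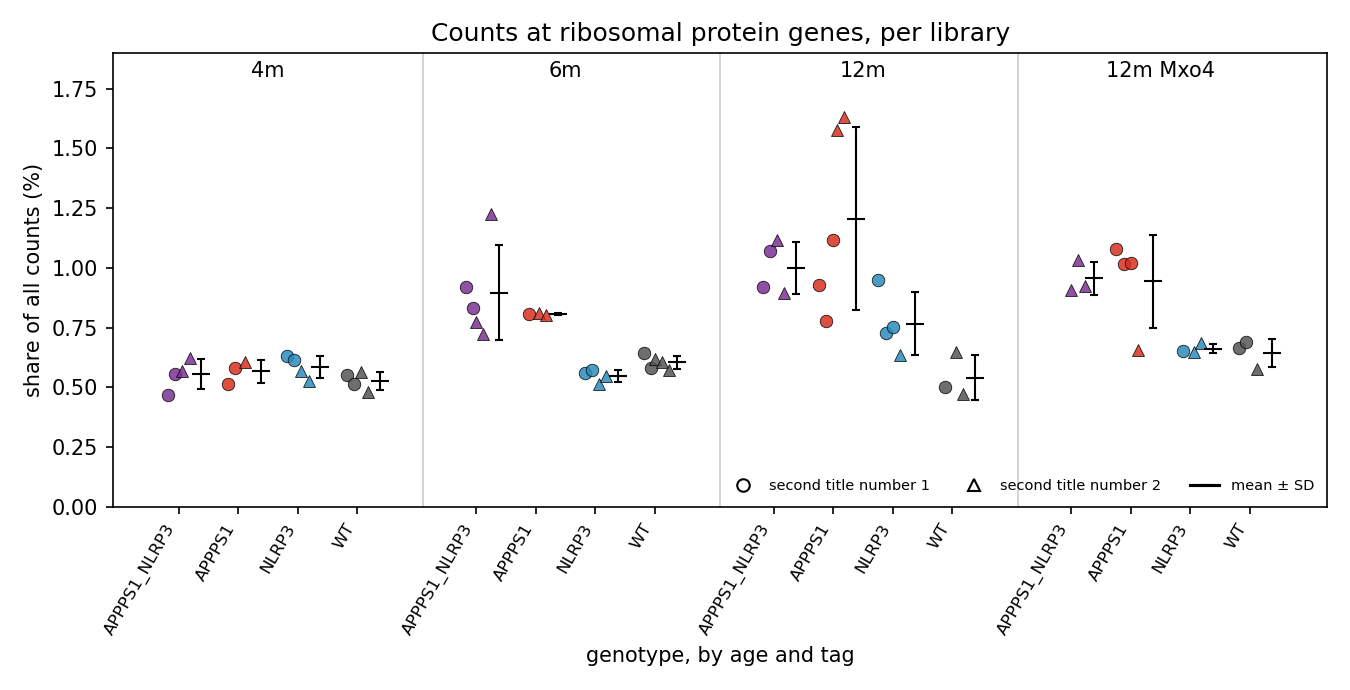
Share of all counts at the 86 ribosomal protein genes (%, vertical axis) in each library of the 16 groups, ordered by age and tag, with APPPS1_6m replicate 21 left out. Circles and triangles give the second title number and black bars the mean ± SD. At 12 months, APPPS1 spans 0.777% to 1.63% and lies above WT at 0.470% to 0.649%.

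At 12 months, nearly the whole family was higher in APPPS1 than in WT cells. Of the 82 tested members, 78 rose and 0 fell (edgeR quasi-likelihood test, p adjusted over all genes by Benjamini and Hochberg's method, threshold 0.05), where 11.1% of all genes rose. The median log2 difference was 1.53, against −0.07 over all genes. In 71 members, the lowest of 5 APPPS1 libraries exceeded the highest of 3 WT libraries, as in 7.92% of all genes. Rises covered 3 of 3 stalk genes (median 1.25), 44 of 47 other large subunit genes (1.46) and 31 of 32 small subunit genes (1.58). Here and below, members called under other fits are given without the share of all genes called there, unless it is stated. Such counts alone cannot tell a change of the members from one of all genes. Without replicates 35 and 41, a setting chosen after seeing the data, 74 members rose with a median of 0.98. Among libraries with second title number 1, where WT has replicate 40 alone, 62 rose.

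The stalk base Rplp0 (ENSMUSG00000067274, chr5:115559467-115563727, + strand) had 458, 357, 264, 339 and 711 CPM in APPPS1_12m replicates 35, 36, 37, 38 and 41, and 216, 199 and 172 CPM in WT_12m replicates 34, 39 and 40. From here on, CPM of single members are scaled by TMM, edgeR's correction for library composition, and CPM of markers and of Xist are not. The groups did not overlap, and the log2 difference of Rplp0 was 1.13 ± 0.16 (SE, edgeR adjusted p = 6.5e-07). Its partners followed, with Rplp1 at 198 ± 114 CPM in APPPS1 (n = 5) and 64.2 ± 14.2 CPM in WT (n = 3), a difference of 1.63 ± 0.28, and Rplp2 at 1.25 ± 0.21. Rplp1 was highest in replicates 41 and 35.

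Rpsa, which sits at the mRNA exit of the small subunit and is also known as a laminin receptor (ENSMUSG00000032518, chr9:120127689-120132369, + strand), had the smallest adjusted p of the family. It had 354, 235, 190, 274 and 496 CPM in APPPS1_12m replicates 35, 36, 37, 38 and 41, and 98.6, 89.5 and 82.2 CPM in WT_12m replicates 34, 39 and 40. The lowest APPPS1 library of Rpsa lay well above the highest WT library, with a difference of 1.78 ± 0.20 (edgeR adjusted p = 1.1e-08). Rps6, the small subunit protein phosphorylated by S6 kinases, differed by 1.22 ± 0.17. Rps3, which lines the mRNA entry and also acts in DNA repair, differed by 1.35 ± 0.19. Rps27a, made as a fusion with ubiquitin, differed by 1.95 ± 0.28. Rpl5 and Rpl11, which bind 5S rRNA and can hold Mdm2 away from p53, differed by 1.12 ± 0.18 and 1.53 ± 0.22. Rpl10 differed by 1.14 ± 0.17, Rpl26 by 1.64 ± 0.28, Rps4x by 1.43 ± 0.19 and Rpl13a by 1.02 ± 0.26. All 10 of these genes rose.

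Rpl39 and Rpl36a, both of the large subunit, had the largest differences apart from Rpl39l. Rpl39, which lines the tunnel through which the new protein leaves (ENSMUSG00000079641, chrX:37082520-37085402, − strand), had 320, 57.5, 34.95, 90.4 and 133 CPM in APPPS1_12m replicates 35, 36, 37, 38 and 41. It had 36.99, 17.7 and 22.5 CPM in WT_12m replicates 34, 39 and 40. The Rpl39 groups overlapped in 1 APPPS1 library, replicate 37, and replicate 35 stood far above the rest. The difference of Rpl39 was 2.31 ± 0.38 (edgeR adjusted p = 9.2e-06), and that of Rpl36a, also on the X chromosome, was 2.19 ± 0.31. Rpl39l, a copy of Rpl39 known from testis, was also called, on few reads: 20, 0, 10, 23 and 14 counts in APPPS1 and 2, 1 and 0 counts in WT. Across the 82 members, the difference fell with transcript length (Spearman's rho −0.38), and was little related to the share of stretches in common with other genes (−0.12) or to the level (−0.07). These values describe genes of the same libraries, and the length is that of 1 annotated transcript per gene.

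**Figure D2:**
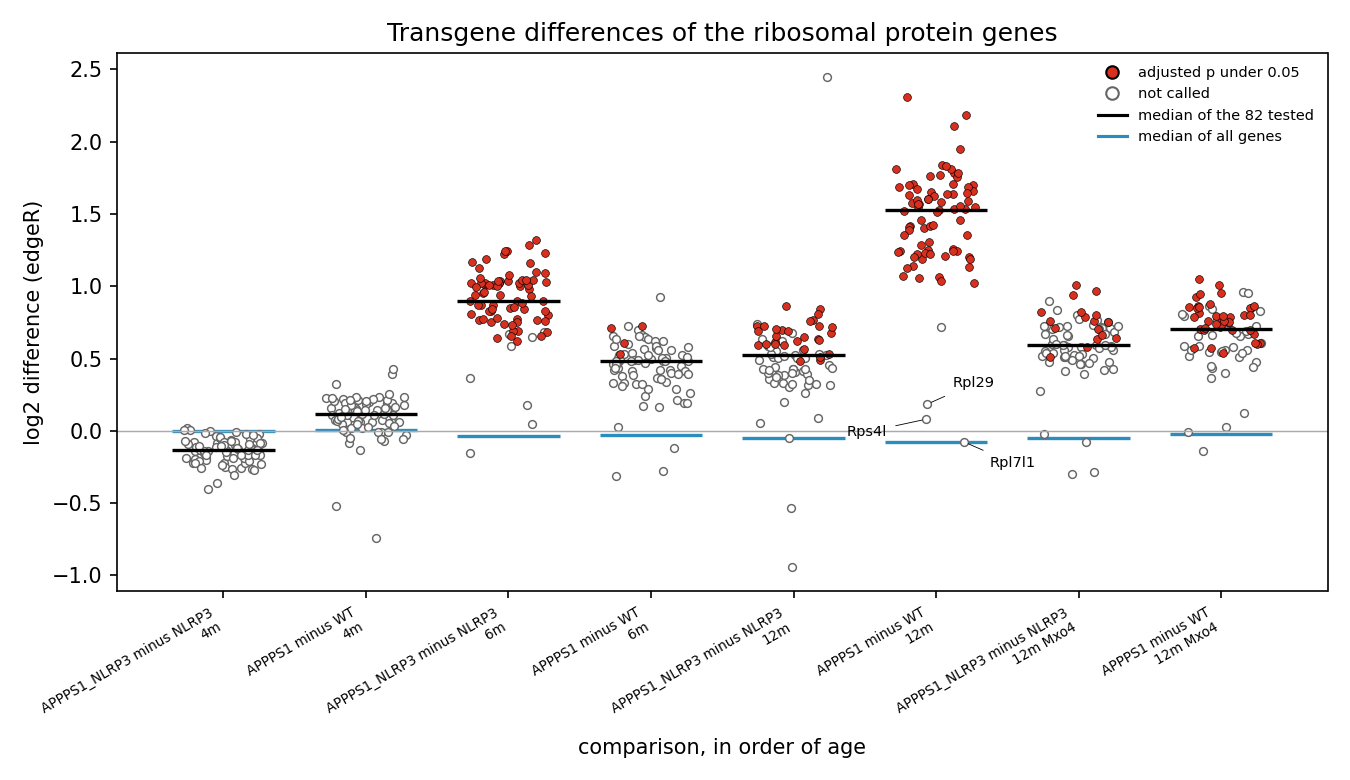
Log2 differences from edgeR (vertical axis) of the tested ribosomal protein genes in the 8 transgene comparisons, in order of age, with filled points at an adjusted p under 0.05. Black lines give the median of the 82 members and blue lines that of all genes. Rpl39l, which rests on few reads, counts in the median but is not drawn. At 12 months, APPPS1 minus WT has 78 called members, Rpl39l among them, and Rpl29, Rps4l and Rpl7l1 lie near 0.

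The 4 members that did not pass in APPPS1 minus WT at 12 months were mostly copies of other members. Rpl7l1, a relative of Rpl7 that takes part in making the large subunit (ENSMUSG00000063888, chr17:46773907-46782672, − strand), had 83.5, 82.3, 89.4, 87.0 and 115 CPM in APPPS1_12m replicates 35, 36, 37, 38 and 41. It had 96.5, 101 and 93.5 CPM in WT_12m replicates 34, 39 and 40. The Rpl7l1 groups overlapped, with a difference of −0.08 ± 0.09 (edgeR adjusted p = 0.60), whereas Rpl7 rose by 1.42 ± 0.20. Rps4l, annotated as a transcribed pseudogene related to Rps4x, had 11.8, 12.3, 13.8, 14.9 and 28.2 CPM in APPPS1 and 16.7, 15.7 and 13.7 CPM in WT, a difference of 0.08 ± 0.22. Rpl6l, a pseudogene, averaged 0.538 CPM in APPPS1 and 0.369 CPM in WT, and its difference was 0.72 ± 0.87. Rpl29, a large subunit protein also known to bind heparin, was the exception that is no copy: it had 57.3, 38.9, 28.9, 37.7 and 25.2 CPM in APPPS1 and 42.03, 28.4 and 28.2 CPM in WT. The Rpl29 groups overlapped, with a difference of 0.18 ± 0.37 (edgeR adjusted p = 0.78). Among the 76 tested members that are not copies, 75 rose.

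Other paralogs rose with their partners. Rps27l, a target of p53 (ENSMUSG00000036781, chr9:66946086-66949516, + strand), had 143, 44.03, 36.9, 68.3 and 93.1 CPM in APPPS1_12m replicates 35, 36, 37, 38 and 41, and 35.4, 27.8 and 28.01 CPM in WT_12m replicates 34, 39 and 40. The groups did not overlap for Rps27l, with a difference of 1.36 ± 0.23, beside 1.83 ± 0.31 for Rps27. Rpl22l1, whose level Rpl22 is known to repress (ENSMUSG00000039221, chr3:28805436-28807424, + strand), had 148, 30.6, 29.8, 44.1 and 63.1 CPM in APPPS1 and 33.6, 21.9 and 25.01 CPM in WT. Replicates 36 and 37 lay within the WT range for Rpl22l1, whose difference was 1.24 ± 0.27 (edgeR adjusted p = 0.00045), beside 1.53 ± 0.25 for Rpl22.

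**Figure D3:**
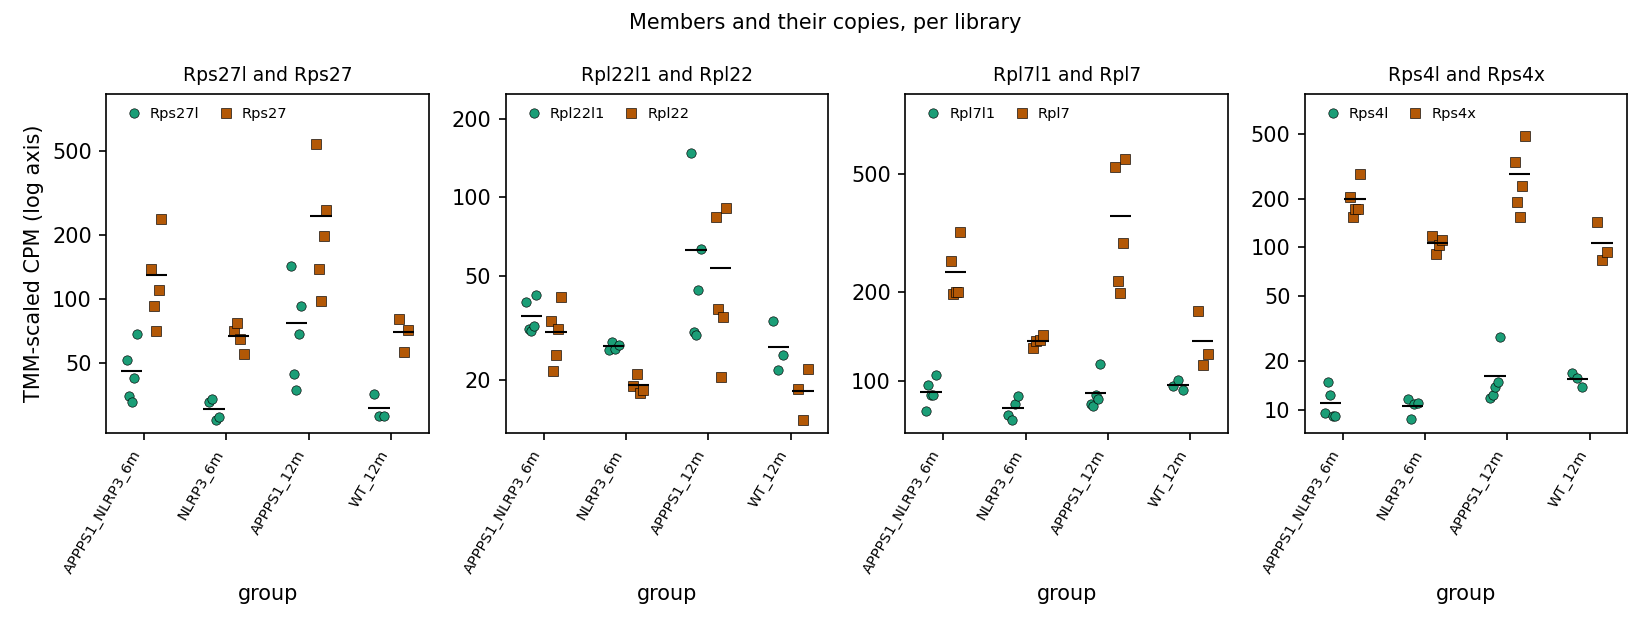
TMM-scaled CPM (log axis) per library for 4 copies (circles) and their partners (squares) in APPPS1_NLRP3_6m, NLRP3_6m, APPPS1_12m and WT_12m, with lines at the group means. Rpl7l1 and Rps4l stay within overlapping ranges in APPPS1_12m and WT_12m, whereas Rpl7 and Rps4x do not overlap.

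At 4 months no member was called in APPPS1 minus WT with edgeR or DESeq2, and 1 had an unadjusted p under 0.05. The median of the members was 0.12, and 0.0252% of all genes were called. At 6 months, 4 members rose: Rpl4 (0.53 ± 0.13), Rpsa (0.71 ± 0.18), Rpl19 (0.61 ± 0.18) and Rpl21 (0.72 ± 0.21), against 2.08% of all genes. The members' median was 0.48, and 78 of 82 differences were positive. Rpsa averaged 182 ± 5.80 CPM in APPPS1 (n = 3) and 110 ± 11.3 CPM in WT (n = 5). Rps7 at 0.73 ± 0.22 had an edgeR adjusted p of 0.060, and Rpl6l had 0.93 ± 0.86. The smallest were Rpl39l (−0.62 ± 0.90), Rpl29 (−0.31 ± 0.37) and Rps4l (−0.28 ± 0.22), and none of these passed. With the 3 shallow libraries left out, an added setting, 17 members rose at 6 months. With all libraries and the first title number also in the fit, 0 rose. Of the 22 immediate-early and dissociation response genes, 10 fell at 6 months, and their part was not tested. Leaving out any 1 of APPPS1_6m replicates 22, 23 and 24 gave 0, and leaving out WT_6m replicate 16, 17, 18 or 20 gave 1 or 2.

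In the Mxo4 set, 40 members rose in APPPS1 relative to WT, as did 3.44% of all genes, with a median of 0.71. The largest called difference was that of Rpl41 (1.05 ± 0.24), the smallest protein of the large subunit. Rpl39 had 0.96 ± 0.37 and did not pass. The smallest were those of Rpl39l (−1.24 ± 0.90), Rpl29 (−0.14 ± 0.38) and Rpl6l (−0.01 ± 0.63), none of which passed. The library whose Cst7 went against its label, APPPS1_12m_Mxo4 replicate 56, had a member share of 0.657%, within the WT range of 0.576% to 0.689%. The other 3 APPPS1 libraries had 1.02% to 1.08%. Without replicate 56, 73 members rose, and the share of all genes in this and the next fits is not given here. Without APPPS1 replicate 57, 58 or 59, 12, 9 and 13 did, and without WT replicate 60, 61 or 62, 3, 16 and 23 did. Xist had at most 0.342 CPM in APPPS1 replicates 56, 57 and 59 and in WT replicate 61, and its part in the result was not tested. With second title number 1 alone, 70 rose, and with 2 alone, which leaves APPPS1 replicate 56 and WT replicate 60, 0 did. All 40 called members were among the 78 of the untagged comparison, or 51.3% of those. The untagged comparison called 78 of its 82 tested members, so this overlap was nearly fixed in advance.

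In mice without Nlrp3, most members were called at 6 months. At 4 months no member was called in APPPS1_NLRP3 minus NLRP3 (0.0101% of all genes, 0 members at an unadjusted p under 0.05), with a median of −0.14. DESeq2 called 0 of the 19 members that it tested there. At 6 months, 73 members rose and 0 fell, with a median of 0.90, where 6.19% of all genes rose. Of all 1618 calls at 6 months, 76.0% were rises, and with RLE size factors 45.8% were. That scaling moved the median of all genes by −0.11 and left 72 members rising, with a median of 0.92 relative to all genes. In 70 members, every APPPS1_NLRP3 library lay above every NLRP3 library, as in 7.06% of all genes. All 73 were among the 78 members called in APPPS1 minus WT at 12 months, or 93.6% of those. That comparison called 78 of its 82 tested members, so this overlap was nearly fixed in advance.

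Rplp0 had 283, 267, 280, 296 and 417 CPM in APPPS1_NLRP3_6m replicates 25, 28, 29, 30 and 31, and 154, 159, 169 and 160 CPM in NLRP3_6m replicates 26, 27, 32 and 33. The groups lay apart, with replicate 31 the highest, and Rplp0 differed by 0.93 ± 0.15 (edgeR adjusted p = 1e-05). The largest differences were those of Rpl32 (1.32 ± 0.21), Rpl36a (1.29 ± 0.27) and Rpl39 (1.25 ± 0.33). Rpl32 averaged 165 ± 59.3 CPM in APPPS1_NLRP3 (n = 5) and 66.1 ± 3.30 CPM in NLRP3 (n = 4). Rpl29 (−0.15 ± 0.34), Rps4l (0.05 ± 0.20), Rpl7l1 (0.18 ± 0.08) and Rpl6l (0.65 ± 0.87) again did not pass. Rpl39l (−0.51 ± 0.81), Rpl22 (0.67 ± 0.22), Rps27l (0.58 ± 0.20), Rpl22l1 (0.36 ± 0.24) and Rpl13a (0.69 ± 0.24) did not pass either. Rpl29 had 31.4, 10.3, 30.2, 10.4 and 51.4 CPM in APPPS1_NLRP3_6m and 19.1, 34.03, 33.2 and 34.3 CPM in NLRP3_6m, so its libraries varied by more than the groups did. Xist had 0.185 to 2.68 CPM in 3 of the 5 APPPS1_NLRP3_6m libraries and 1.04 CPM in 1 of the 4 NLRP3_6m libraries, and its part in the result was not tested. Of 10 endothelial markers, 3 fell, with overlapping summed levels of 218 to 698 CPM in APPPS1_NLRP3_6m and 681 to 1411 CPM in NLRP3_6m, and their part was not tested.

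At 12 months, 29 members rose in APPPS1_NLRP3 relative to NLRP3, as did 5.56% of all genes, with a median of 0.52. Rpsa (0.76 ± 0.18), Rpl3 (0.62 ± 0.15), which shapes the peptidyl transferase centre, and Rpl19 (0.72 ± 0.18) had the smallest adjusted p. Rps28 (0.86 ± 0.24) was the largest called difference, below Rpl6l (2.44 ± 1.0) and Rpl39l (2.34 ± 0.99), which did not pass. Rpl29 (−0.94 ± 0.37), Rps4l (−0.54 ± 0.21) and Rpl7l1 (−0.05 ± 0.09) had the smallest differences, and none passed. Leaving out APPPS1_NLRP3_12m replicate 43 or 49 gave 10 and 17 rises, and leaving out NLRP3_12m replicate 42, 47 or 48 gave 11, 15 and 18. In the Mxo4 set, 17 members rose in APPPS1_NLRP3 relative to NLRP3, as did 3.56% of all genes, with a median of 0.60. Rpl38 (1.01 ± 0.30), Rpl32 (0.97 ± 0.25) and Rpl41 (0.94 ± 0.25) were the largest. Rpl22l1 (−0.30 ± 0.28), Rpl7l1 (−0.28 ± 0.10) and Rpl39l (−0.09 ± 0.97) were the smallest and did not pass. All 3 APPPS1_NLRP3 libraries of that set had a higher member share than all 3 NLRP3 libraries. Leaving out APPPS1_NLRP3 replicate 53 or 54 gave 3 and 9 rises, and leaving out NLRP3 replicate 50, 51 or 55 gave 6, 4 and 6. The 29 and the 17 called members all lay among the 78 called in APPPS1 minus WT at 12 months, or 37.2% and 21.8% of those. Those 78 were nearly all of the 82 tested members, so these overlaps were nearly fixed in advance. The summed level of immediate-early and dissociation response genes was 10438 to 14825 CPM in APPPS1_NLRP3_12m and 17073 to 20310 CPM in NLRP3_12m. In the Mxo4 set, it was 26396.5 to 30644 CPM in APPPS1_NLRP3 and 38134.5 to 47334 CPM in NLRP3, without overlap in either set. In that set, Xist had 2.30 to 649 CPM in APPPS1_NLRP3 and 0.151 to 668 CPM in NLRP3. The part of these measures was not tested.

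Few members were called for loss of Nlrp3 alone. In NLRP3 minus WT, no member was called at 4 months (median 0.19, 0.398% of all genes called), at 6 months (−0.18, 0.488%) or in the Mxo4 set (0.10, 0.101%), with edgeR or DESeq2. In each of these, 1 member had an unadjusted p under 0.05. At 12 months, Rps2, a small subunit protein at the mRNA entry, rose by 0.65 ± 0.17 (edgeR adjusted p = 0.031), the single called member, where 0.483% of all genes rose. DESeq2 called 12 of its 80 tested members higher, and 210 of all 15622 genes that it tested. Of all genes called by edgeR at 12 months, 30.4% were rises, and with RLE size factors 41.99% were. The median at 12 months was 0.52, and 80 of 82 differences were positive. An unadjusted edgeR p under 0.05 was found in 59 members and in 3075 of all 19865 genes. With the shallow libraries left out, 0 members were called and the median was 0.43, and with the first title number also in the fit, 0 were called and the median was 0.49. Leaving out NLRP3_12m replicate 42 gave 7 calls and replicate 45 gave 0, and leaving out WT_12m replicate 34, 39 or 40 gave 2, 0 and 0. Rps21 (1.07 ± 0.37), Rpl37 (0.93 ± 0.32) and Rpl39l (1.97 ± 1.35) had larger differences that did not pass. Rpl6l (−1.86 ± 1.07), Rpl7l1 (−0.06 ± 0.10) and Rps4l (0.21 ± 0.23) had the smallest. Beside the difference in Xist, 6 of 10 endothelial markers fell at 12 months, with summed levels of 108 to 283 CPM in NLRP3_12m and 471 to 749 CPM in WT_12m. Mitochondrially encoded genes held 0.702% to 2.97% of counts in NLRP3_12m and 0.468% to 0.613% in WT_12m. The immediate-early and dissociation sum was 17073 to 20310 CPM in NLRP3_12m and 25682 to 26477 CPM in WT_12m, and neither measure overlapped between the groups. Their part in the result was not tested.

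In APPPS1_NLRP3 minus APPPS1, no member was called at 4 months (median −0.05, 0.237% of all genes called, 0 members at an unadjusted p under 0.05) or at 6 months (0.27, 0.508%, 3 members). None was called in the Mxo4 set (0.02, 0.337%, 0 members), and DESeq2 called none in these 3 comparisons. At 12 months, 9 members fell and 0 rose, where 3.44% of all genes fell, with a median of −0.42. With the first title number, which recurs across groups, as a further term, 0 were called and the median was −0.36. Rps15a (−0.85 ± 0.24), Rps27 (−0.85 ± 0.27), Rps27a (−0.79 ± 0.24), Rpl22l1 (−0.78 ± 0.24), Rplp1 (−0.78 ± 0.25), Rpl34 (−0.73 ± 0.21), Rps7 (−0.72 ± 0.21), Rps27l (−0.71 ± 0.20) and Rps14 (−0.69 ± 0.21) made up the 9. Rpl39 had the lowest difference (−0.91 ± 0.32) and did not pass. Rpl12 (0.01 ± 0.20), Rpl7l1 (−0.02 ± 0.08) and Rpl39l (−0.04 ± 0.82) lay at the other end. The member shares overlapped, at 0.894% to 1.12% in APPPS1_NLRP3_12m and 0.777% to 1.63% in APPPS1_12m. No member had all APPPS1_NLRP3 libraries below all APPPS1 libraries, and the share of all genes that did is not given here. Without APPPS1_12m replicates 35 and 41, 0 members were called and the median was 0.05. Leaving out APPPS1_NLRP3_12m replicate 44, 46 or 49 gave 0, 2 and 2 calls, and leaving out APPPS1_12m replicate 35, 36, 37 or 41 gave 0, 21, 46 and 1. With second title number 2 alone, 57 fell, and with 1 alone, 0 did. Endothelial markers fell in 8 of 10, with 98.1 to 213 CPM in APPPS1_NLRP3_12m and 279 to 481 CPM in APPPS1_12m, neuron markers rose in 6 of 11, and the Xist difference above applies. The immediate-early and dissociation sum was 10438 to 14825 CPM in APPPS1_NLRP3_12m and 15095 to 24802 CPM in APPPS1_12m, without overlap, and 6 of its 22 genes fell. Their part was not tested.

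Between ages, members rose in the transgenic groups. From 4 to 12 months, 75 members rose in APPPS1_NLRP3 (median 1.02, 7.24% of all genes rose) and 78 in APPPS1 (median 1.39, 13%). At 12 months, Rpl39 was higher than at 4 months by 2.12 ± 0.38, Rpl36a by 2.05 ± 0.31 and Rpl21 by 1.98 ± 0.24 in APPPS1. In APPPS1_NLRP3, Rps28 (1.37 ± 0.24) and Rpl36a (1.33 ± 0.28) were the largest called, and Rpl39l (1.89 ± 0.89) did not pass. Rpl7l1 did not pass in APPPS1_NLRP3 (0.12 ± 0.09) or in APPPS1 (0.06 ± 0.09). Rpl29 did not pass in either, at 0.07 ± 0.36 in APPPS1_NLRP3 and 0.88 ± 0.38 in APPPS1, while Rps4l had 0.28 ± 0.21 in APPPS1_NLRP3 and rose by 0.86 ± 0.22 in APPPS1. Without replicates 35 and 41 of APPPS1_12m, 73 members rose in APPPS1. Of all genes called in APPPS1, 58.05% were rises, and with RLE size factors 47.5% were, with 78 members rising under both. Without the transgenes, no member was called in NLRP3 (median 0.33, 0.448% of all genes called) or in WT (median 0.01, 0.0302%), with edgeR or DESeq2. Members with an unadjusted p under 0.05 numbered 20 in NLRP3 and 1 in WT. All NLRP3_12m and APPPS1_NLRP3_12m libraries were low in Xist and all libraries at 4 months were high, at 469 to 609 CPM in NLRP3_4m and 540 to 616 CPM in APPPS1_NLRP3_4m. Age and the Xist level cannot be told apart in these genotypes. The immediate-early and dissociation sum was 17756 to 26607 CPM in APPPS1_NLRP3_4m and 10438 to 14825 CPM in APPPS1_NLRP3_12m. It was 23844 to 40619 CPM in NLRP3_4m and 17073 to 20310 CPM in NLRP3_12m, without overlap by age in either genotype. In APPPS1 the ages overlapped, with 11883 to 30158 CPM at 4 months and 15095 to 24802 CPM at 12 months. The part of this sum was not tested. Leaving out NLRP3_12m replicate 42 gave 1 call in NLRP3. The age comparisons share their 12-month libraries with the transgene comparisons.

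Between the Mxo4 set and the untagged libraries, members were called in APPPS1 but in no other genotype, and that contrast between genotypes was not tested. No member was called in APPPS1_NLRP3 (median −0.03, 1.18% of all genes called, 0 members at an unadjusted p under 0.05), in NLRP3 (−0.10, 6.85%, 5 members) or in WT (0.33, 0.227%, 9 members). DESeq2 called 0 in APPPS1_NLRP3, 1 lower in NLRP3 and 1 higher in WT, and leaving out NLRP3_12m replicate 42 gave 4 calls in NLRP3. In APPPS1, 8 members fell in the Mxo4 set relative to the untagged one, where 3.73% of all genes fell, with a median of −0.45. They included Rps27l (−0.69 ± 0.20), Rpl34 (−0.70 ± 0.21), Rps15a (−0.79 ± 0.24), Rps14 (−0.70 ± 0.21), Rpl15 (−0.45 ± 0.14), Rpl5 (−0.50 ± 0.16) and Rps27a (−0.77 ± 0.25). Rpl39 (−0.93 ± 0.33), Rpl6l (−0.88 ± 0.81) and Rpl36a (−0.81 ± 0.27) were lower still and did not pass. Rps4l (0.19 ± 0.20), Rpl7l1 (−0.01 ± 0.08) and Rpl22l1 (−0.04 ± 0.23) lay at the top. With the first title number also in the fit, 0 members were called and the median was −0.32. Without APPPS1_12m replicates 35 and 41, 0 were called and the median was 0.04. Leaving out APPPS1_12m_Mxo4 replicate 56 or 59 gave 0 calls, and leaving out untagged replicate 35, 36, 37, 38 or 41 gave 0, 30, 49, 5 and 0. In APPPS1, endothelial markers fell in 7 of 10 and 5 of 22 immediate-early and dissociation genes rose. Xist was at most 0.342 CPM in 3 of 4 APPPS1 libraries of the Mxo4 set and at least 397 CPM in the untagged ones. In the other genotypes, the immediate-early and dissociation sum was higher in the Mxo4 set without overlap. It was 26396.5 to 30644 CPM against 10438 to 14825 CPM in APPPS1_NLRP3 and 38134.5 to 47334 CPM against 17073 to 20310 CPM in NLRP3. In WT it was 32566 to 36090 CPM against 25682 to 26477 CPM. In APPPS1 it overlapped, at 20392 to 39468 CPM against 15095 to 24802 CPM. The part of these measures was not tested.

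Whether the transgene difference depended on Nlrp3 was asked by an interaction, the difference without Nlrp3 minus the difference with it. No member was called at 4 months (median −0.24, 0% of all genes called, 0 members at an unadjusted p under 0.05), at 6 months (0.44, 0.0201%, 17 members) or in the Mxo4 set (−0.09, 0%, 1 member), with edgeR or DESeq2. At 12 months, edgeR called no member, with a lowest adjusted p of 0.096, while 77 members had an unadjusted p under 0.05, the median was −0.97 and 0.00503% of all genes were called. DESeq2 called 30 of its 78 tested members lower, and 85 of all 7923 genes that it tested. RLE size factors moved the median of all genes at 6 months by −0.11. Without APPPS1_12m replicate 37, edgeR called 51, and without replicate 36 it called 10. Without replicates 35 and 41 it called 0, with a median of −0.43.

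Other genes of translation moved to different extents, given here from lists chosen with earlier results of these data known. Of 21 further TOP mRNAs, which encode elongation factors and other proteins of translation, 20 rose in APPPS1 minus WT at 12 months, with a median of 0.91. Eef1a1, which brings aminoacyl-tRNA to the ribosome, rose by 1.46 ± 0.20, and Eef1b2, its exchange factor, by 1.26 ± 0.18. In this comparison 11.1% of all genes rose. Translation initiation factors rose in 7 of 29 (median 0.20), with Eif3i at 0.89 ± 0.16 and Eif5a at 0.51 ± 0.11. Eif3e, Eif3f, Eif3h, Eif3k and Eif4b, also initiation factors, were counted among the TOP mRNAs instead, here and below. Npm1 was likewise counted there and not with ribosome biogenesis. The contrast between these lists therefore depends partly on how they were split. Genes of ribosome biogenesis, which make and process rRNA, rose in 5 and fell in 1 of 40 (median 0.01). Nop10, of the particles that modify rRNA, rose by 1.22 ± 0.20, and Polr1d, an RNA polymerase subunit, by 0.67 ± 0.15. Growth signalling genes such as mTOR components rose in 1 and fell in 2 of 15 (median −0.12), with Rheb at 0.40 ± 0.12 and Rps6kb2 at −0.44 ± 0.15. Genes of the integrated stress response rose in 4 of 15 (median 0.02). Psat1, of serine synthesis, rose by 2.93 ± 0.34, and Mthfd2, of mitochondrial folate metabolism, by 0.72 ± 0.22.

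Mitochondrial ribosomal protein genes, whose proteins form the separate ribosome of mitochondria, rose in 30 and fell in 1 of 78 (median 0.34) at 12 months in APPPS1 minus WT. Mrpl54 rose by 1.21 ± 0.21 and Mrps24 by 0.99 ± 0.17. Nuclear genes of oxidative phosphorylation rose in 22 of 24 (median 0.94), with Ndufa1 at 2.26 ± 0.28 and Uqcrh at 1.45 ± 0.22. In APPPS1_NLRP3 minus NLRP3 at 6 months, where 6.19% of all genes rose, 19 of 21 further TOP mRNAs rose (median 0.59), against 5 of 29 initiation factors (0.20), 2 of 40 biogenesis genes with 1 that fell (0.10), 3 of 78 mitochondrial ribosomal genes (0.14) and 5 of 24 oxidative phosphorylation genes (0.39).

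**Figure D4:**
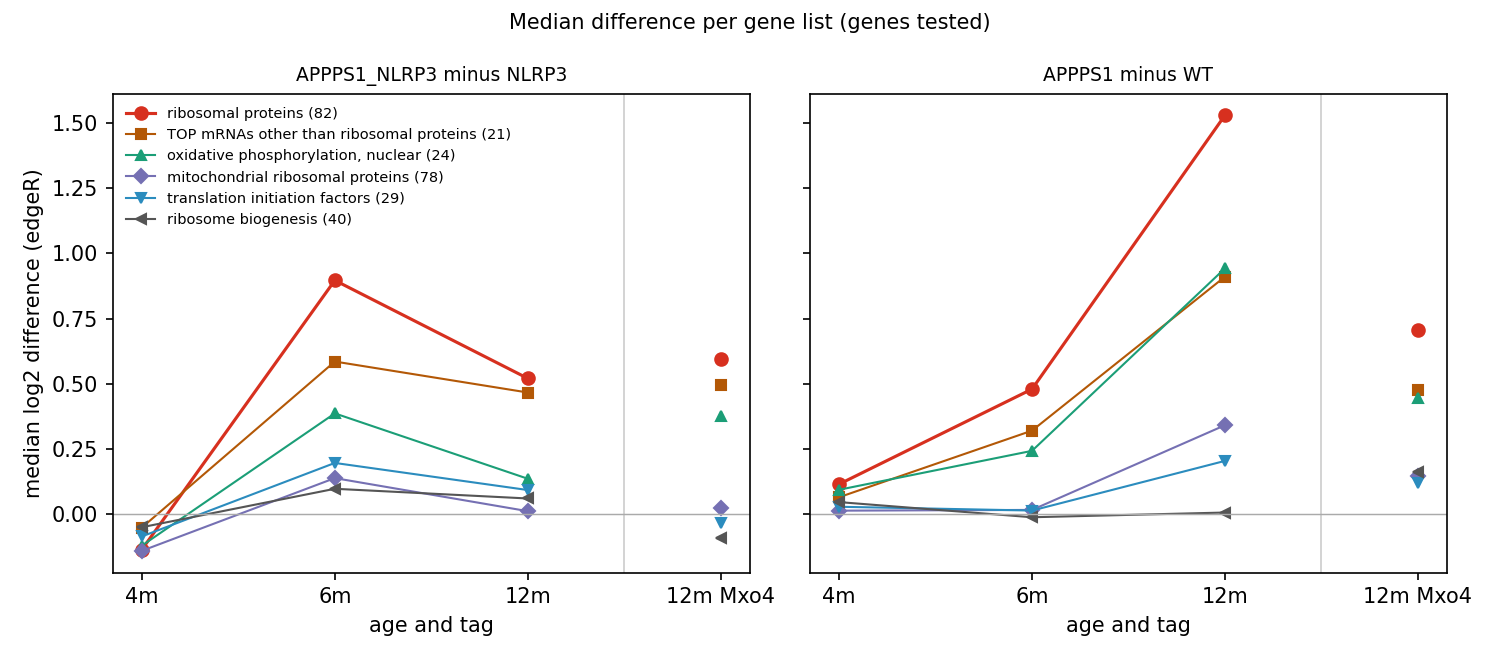
Median log2 difference from edgeR (vertical axis) of the 82 ribosomal protein genes and of 5 other lists in the transgene comparisons, without Nlrp3 (left panel) and with it (right panel). Lines join the ages, and the Mxo4 set stands apart. At 12 months, the ribosomal proteins reach 1.53 in APPPS1 minus WT, the further TOP mRNAs 0.91 and ribosome biogenesis 0.01.

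Several other measures moved with the members. In APPPS1 minus WT at 12 months, all 20 genes of the disease-associated microglia list rose, with a median of 3.61. A list of 14 short and abundant protein-coding genes outside the family (under 1000 bases of exons and at least 100 CPM), made after the values were seen, had 12 rises and 1 fall there (median 1.39). It holds Rps3a1 (1.55 ± 0.21), Cst7 and Tyrobp. At 6 months without Nlrp3, the same list had 9 rises and 1 fall (median 0.80). The part of transcript length in the members' difference was not tested. The summed level of 22 immediate-early and dissociation response genes was 15095 to 24802 CPM in APPPS1_12m and 25682 to 26477 CPM in WT_12m, so the groups did not overlap, and it was lowest in replicates 41 and 35, which had the highest member shares. Of these 22 genes, 1 rose and 0 fell. Endothelial markers summed to 279 to 481 CPM in APPPS1_12m and 471 to 749 CPM in WT_12m, with 1 of 10 called, lower. Neuron markers had 15.6 to 74.8 CPM in APPPS1_12m and 32.01 to 197 CPM in WT_12m, with 1 of 11 called, lower. Neutrophil markers had 443 to 3040 CPM in APPPS1_12m and 649 to 827 CPM in WT_12m, with 0 of 10 called. Mitochondrially encoded genes held 0.572% to 1.33% of counts in APPPS1_12m and 0.468% to 0.613% in WT_12m. The part of these markers and shares was not tested.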

How the data were processed

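CD11b+ brain cells were profiled in 62 RNA-seq libraries. Per the labels' protocols, libraries were made from 10 ng RNA with a SMART-Seq v4 kit in 2 batches, pooled 7 to 8 together and sequenced in pairs of 125 bases. The authors deposited raw counts per gene. Per the submitters' processing notes, Trimmomatic, TopHat and HTSeq were used with mm10; versions, strand and multi-mapping settings are not given in the sources used here. No molecular identifiers were used, so intervals from counts would cover counting error only.

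Symbols came from GENCODE vM21 (GRCm38, the same assembly as mm10) for 53706 of 53801 identifiers, and promoters from RefSeq (GRCm38.p6). All 62 libraries were fitted in 1 edgeR 4.0.16 quasi-likelihood model (R 4.3.3) with TMM factors, a term per group and the second title number. The filter (minimum count 10, minimum total 15) left 19865 genes. Tests were two-sided, with Benjamini-Hochberg adjustment over all genes of each of 28 comparisons, and a call needed an adjusted p under 0.05. Values are log2 differences ± SE, and levels are means ± SD over libraries of at least 100000 counts. A gene counted as sharing stretches when windows of 75 bases recurred in transcripts of other genes.

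The model was tested on simulated data for APPPS1 minus WT at 12 months (19452 genes). It called 74% of genes raised by 1 and 26% of those raised by 0.5 on the log2 scale. It called 66% of genes lowered by 1, 22% of those lowered by 0.5 and 4 of 19252 unchanged genes. Counts were drawn for each gene on its own, so genes that move together within a library were not simulated. Among 90 replicate pairs, the chi-square per degree of freedom was 7.00 at the lowest, so no library was taken for a repeat.

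Named were a set of core members, all paralogs with their partners, the 3 largest and 3 smallest differences of each comparison with calls, and the 2 genes of other lists with the smallest adjusted p. The members and lists were chosen with earlier results of these data known. Alternatives were RLE factors, TMM without the members, no filter, DESeq2 1.42.0, other terms, leaving out each library, and settings added after seeing the data. Some named genes that meet this rule are not reported here.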

Additional observations from a re-analysis of the deposited data

Results flagged for a closer look

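Single libraries were screened for standing apart from the others of their group in the summed level and in 13 members of 5 groups, by the gap to the nearest library over the group's range. Of 75 sets of values, 10 passed the 95% limit, and chance flags about 1 in 20. APPPS1_12m_Mxo4 replicate 56 had a summed level of 0.657% of counts, below the other 3 libraries of its group. APPPS1_NLRP3_6m replicate 31 was above its group for Rplp0 at 417 CPM, Rplp1 at 176 CPM and Rpl3 at 526.5 CPM. APPPS1_NLRP3_12m replicate 43 was above its group for Rplp0 at 406 CPM. NLRP3_12m replicate 45, with 1394435 counts in all, was above its group for Rpl39 at 65.4 CPM. In APPPS1_12m, replicate 35 was above its group for Rpl22l1 at 148 CPM, and replicate 41 for Rpl7l1 at 115 CPM and Rps4l at 28.2 CPM. NLRP3_6m replicate 26 was below its group for Rpl29 at 19.1 CPM.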

How the results depend on the processing

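No paired analysis was possible by replicate number because that number is a library's own index and occurs in 1 library; the first and second title numbers, which recur across groups, were fitted as terms instead. The 78 rises in APPPS1 minus WT at 12 months and the 73 in APPPS1_NLRP3 minus NLRP3 at 6 months stayed within 1.5 times under every alternative run. Second title number 1 alone gave no value for the 4 comparisons that need APPPS1_NLRP3_12m_Mxo4, whose libraries all have number 2. Fits within 1 second number can leave an arm with 1 library, which is then assumed to vary like the other groups: at 12 months, WT has replicate 40 alone with number 1, and NLRP3 has replicate 42 alone with number 2. APPPS1_12m_Mxo4 with number 2 is replicate 56 alone, whose Cst7 goes against its label, so counts from it compare that library and say nothing of the group. In APPPS1 minus WT at 6 months (4 members called), 8 were called with DESeq2, 2 without the term for the second title number, 0 with the first title number added or with second number 1 alone, and 17 without libraries under 10000000 counts. In its Mxo4 set (40), 70 were called with second number 1 and 0 with 2. In APPPS1_NLRP3 minus NLRP3 at 12 months (29), 49 were called without the shallow libraries, 15 with second number 1 and 1 with 2 (NLRP3 replicate 42 alone); in its Mxo4 set (17), 28 with DESeq2, 30 with the first number added and 41 without the shallow libraries. In NLRP3 minus WT at 12 months (1), 12 were called with DESeq2 and 0 with the first number added, without the shallow libraries or with second number 2. In APPPS1_NLRP3 minus APPPS1 at 12 months (9), 0 were called with the first number added, without APPPS1_12m replicates 35 and 41 or with second number 1, 2 without the shallow libraries and 57 with second number 2; in the Mxo4 set (0), 5 with second number 2 (replicate 56 alone). From 4 to 12 months in APPPS1_NLRP3 (75), 47 were called with second number 2. For Mxo4 minus untagged in APPPS1 (8), 14 were called with RLE factors, 22 with DESeq2, 13 without the second number's term, 75 with second number 2 (replicate 56 alone), and 0 with the first number added, without replicates 35 and 41, without the shallow libraries or with second number 1. In NLRP3 (0), 1 was called with RLE factors, no filter, DESeq2, no second term or the first number added, and in WT (0), 1 with DESeq2. The interaction at 12 months (0) had 2 calls with no filter and 30 with DESeq2. With DESeq2, 487 of 17546 genes rose in APPPS1 minus WT at 6 months, and 855 of 17162 in APPPS1_NLRP3 minus NLRP3 of the Mxo4 set. For Mxo4 minus untagged in APPPS1, 1146 of 15237 genes fell with DESeq2 and 860 of 19865 with RLE factors. For the remaining alternatives, the share of all genes is not given here unless stated above. The cause was not tested.

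Leaving out 1 library gave 0 to 5 calls in APPPS1 minus WT at 6 months, 77 to 78 at 12 months and 3 to 73 in the Mxo4 set. It gave 56 to 76 in APPPS1_NLRP3 minus NLRP3 at 6 months, 10 to 38 at 12 months and 3 to 15 in the Mxo4 set. It gave 0 to 7 in NLRP3 minus WT and 0 to 46 in APPPS1_NLRP3 minus APPPS1, both at 12 months. Across ages it gave 72 to 75 in APPPS1_NLRP3, 77 to 78 in APPPS1 and 0 to 1 in NLRP3. For the tag it gave 0 to 49 in APPPS1 and 0 to 4 in NLRP3, and for the interaction at 12 months 0 to 51. The other comparisons had 0 calls in every such fit. The share of all genes called in these fits is not given here.

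Of 2424 alternatives for 131 calls of named members, 2157 kept the call, 262 lost it, and 5 lost it with a change of sign. Those 5 differences were not called in the opposite direction. Rps27a changed sign in APPPS1_NLRP3 minus APPPS1 at 12 months (0.0452 without replicates 35 and 41, 0.0378 with second number 1). It also did so in Mxo4 minus untagged APPPS1 (0.0130 and 0.189). Rpl5 changed sign in Mxo4 minus untagged APPPS1 with second number 1 (0.0550). The APPPS1_6m share of 0.807% was 0.819% outside mitochondrially encoded genes and 0.812% with pseudogenes added. Depth limits Rpl39l and Rpl6l, which have few reads, and NLRP3_12m replicate 45.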
